A study of Mus musculus with 16 samples.

Results

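The genes described are 7 transcription factors that mark position along the gut: Cdx1, Cdx2, Gata4, Gata5, Gata6, Onecut2 and Pdx1. They were taken by gene symbol, and each was found once among the 24940 genes counted. Poly(A) RNA of the terminal ileum, the last stretch of small intestine before the cecum, was sequenced from 16 mice on a C57BL/6 background, with 4 animals in each of 4 groups. All animals carried loxP-flanked Bcl6 (Bcl6fl/fl), the gene of the repressor BCL6. Male WT and female WT had no Cre, whereas in male LKO and female LKO (Bcl6LKO) an Albumin-Cre transgene removed Bcl6 from hepatocytes. The ileum itself keeps the floxed gene, and ages were not given in the sources used here. Levels are counts per M counts (CPM) where a gene is compared between libraries, and CPM per kb of the gene's exons (RPKM) where genes are compared.

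The gut tube is divided by transcription factors before its parts look different. CDX2 and its relative CDX1 are homeobox factors that specify and maintain intestinal epithelium, and loss of CDX2 in the embryonic gut lets stomach-like epithelium appear in its place. GATA4 is present in duodenum and jejunum and is lost toward the distal ileum, where bile acid uptake genes take over, while GATA6 is present along the whole intestinal epithelium and GATA5 is another zinc finger factor of the gut epithelium. PDX1 is the factor of pancreas, distal stomach and duodenum, and ONECUT2 is a cut-homeobox factor that marks the proximal small intestine. A terminal piece should be read against both ends of this map.

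Pdx1 and Cdx2 are neighbours. On the mm10 assembly Pdx1 lies at chr5:147270131-147275149 on the plus strand and Cdx2 at chr5:147300900-147307249 on the minus strand, with 25.8 kb between their ends and 37.1 kb between their starts. The promoter windows of this pair are shown because the pair sits side by side and stands at opposite ends of the expression range. The windows come from RefSeq (GRCm38.p6), run from 250 bases before to 50 bases after the RefSeq start, and are written 5′ to 3′ on the strand of the gene, with CpG dinucleotides in capitals. The Cdx2 window is chr5:147307200-147307499 (minus strand) and the Pdx1 window chr5:147269847-147270146 (plus strand).
Cdx2: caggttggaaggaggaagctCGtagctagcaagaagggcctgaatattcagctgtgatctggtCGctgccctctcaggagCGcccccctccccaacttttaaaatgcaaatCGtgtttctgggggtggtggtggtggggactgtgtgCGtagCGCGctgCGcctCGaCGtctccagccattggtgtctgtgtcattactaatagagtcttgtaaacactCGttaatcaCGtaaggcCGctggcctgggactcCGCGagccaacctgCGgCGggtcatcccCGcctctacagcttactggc
Pdx1: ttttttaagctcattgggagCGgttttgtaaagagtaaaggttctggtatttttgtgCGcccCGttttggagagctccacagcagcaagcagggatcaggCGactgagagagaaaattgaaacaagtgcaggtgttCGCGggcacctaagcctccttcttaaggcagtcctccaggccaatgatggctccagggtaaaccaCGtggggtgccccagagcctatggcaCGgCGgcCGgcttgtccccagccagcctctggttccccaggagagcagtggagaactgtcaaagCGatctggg
The Cdx2 window held 18 CpGs and was 57.3% G or C, and the Pdx1 window held 11 CpGs and was 55.3% G or C. Over the 32851 windows of the RefSeq table the medians were 7 CpGs and 52.7%, and fewer CpGs were counted in 70.3% of windows than in that of Cdx2 and in 58.6% than in that of Pdx1. The Gata5 window (chr2:180334630-180334929, minus strand) held 26 CpGs and was 69.7% G or C. None of these 3 windows held the GATA letters AGATAA or TGATAA or the CDX letters TTTATG or TTTATT on either strand, which were present in 11.2%, 9.05%, 11.9% and 19.6% of all windows. The absence says only that these letters are not in these windows.

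Depth and makeup set limits on what follows. Library totals were 15.7 to 20.5 M gene counts, apart from 60.3 M in female LKO 1. A gene with 0 counts may still be present at up to 3 counts, or 0.0497 to 0.191 CPM (counting error only). Libraries of a group differed by more than counting noise in every pair. Bcl6 was at 9.25 to 17.8 CPM in the WT groups and 15.2 to 26.1 CPM in the LKO groups, which does not check a deletion made in liver. The Y-linked gene Ddx3y was at 0 in all 8 libraries labelled female and at 23.8 to 33.6 CPM in all 8 labelled male. In bulk tissue, fewer cells of a type and less RNA per cell cannot be told apart. Some libraries stood apart in makeup, 5 by a colonic gene and 4 by lymphoid follicle genes, as described below, and edgeR called 0 of the factors it could test (Pdx1 in no comparison) with or without either set. Whether libraries came from separate extraction batches was not given. The p-values set a group difference against the spread between libraries, in which animal, piece and preparation cannot be told apart.

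The 7 genes covered more than 3 orders of magnitude. Per length, Cdx1 was highest at 134 ± 10.2 RPKM (mean ± SD, n = 16), followed by Cdx2 at 114 ± 10.4, Gata5 at 31.9 ± 3.48 and Gata6 at 17.6 ± 1.52 RPKM. Gata4 was 42.9-fold below Gata6 at 0.41 ± 0.136 RPKM, and Pdx1 and Onecut2 were both at 0.04 RPKM, with SDs of 0.0507 and 0.0211. Cdx1 had a higher level than 97.6% of the 20514 genes with at least 1 count, Cdx2 than 97.0%, Gata5 than 87.6% and Gata6 than 78.7%. Gata4 stood above 27.7% of them, and Pdx1 and Onecut2 above 12.8% each.

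Neighbours in this order were compared by their ranges over the 16 libraries. Cdx1 exceeded Cdx2 per length in 16 of 16 libraries, although the ranges overlapped (119 to 156 and 84.1 to 130 RPKM). The ranges of Cdx2 and Gata5, of Gata5 and Gata6, of Gata6 and Gata4 and of Gata4 and Pdx1 were separate. Those of Gata5 and Gata6 came within a small step of each other, with 23.0 RPKM as the lowest Gata5 and 22.5 RPKM as the highest Gata6 value. Pdx1 and Onecut2 overlapped, and Pdx1 was the higher of the pair in 7 of 16 libraries. Without division by length Cdx2 came before Cdx1 and Onecut2 before Pdx1.

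**Figure D1:**
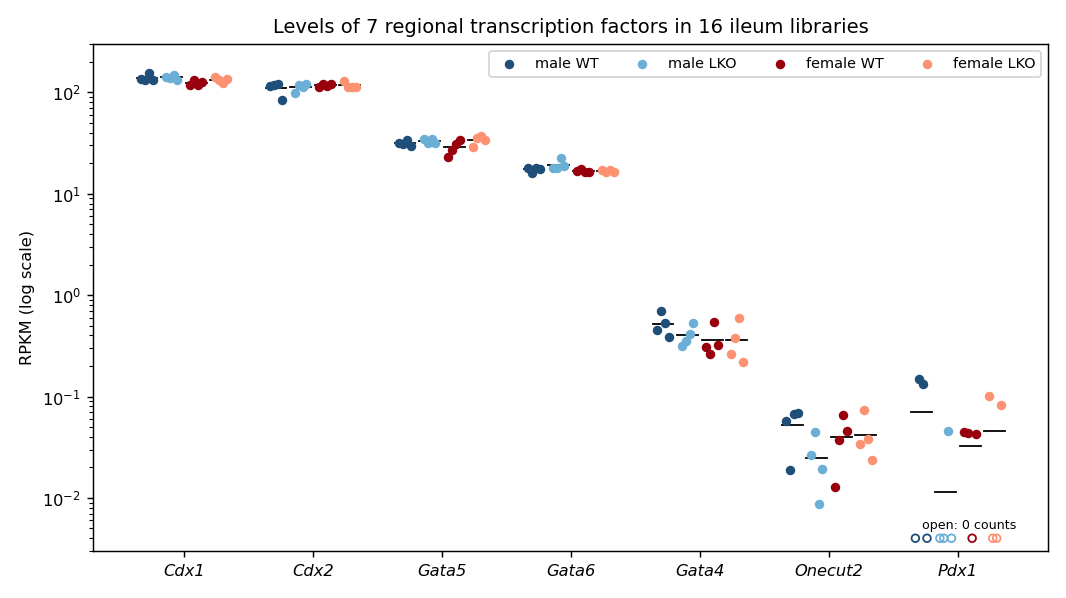
Level of each gene in RPKM (log axis) in each library, coloured by group (male WT, male LKO, female WT, female LKO; 4 points each), with a black bar at each group mean and open circles for 0 counts. Cdx1, Cdx2, Gata5 and Gata6 lie between 15.9 and 156 RPKM in all 16 libraries, Gata4 lies below 0.7 RPKM, and Pdx1 has 0 counts in 8 libraries.

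The CDX genes were the most abundant and among the steadiest. Cdx1 (chr18:61018862-61036199, minus strand) measured 237, 228, 272 and 232 CPM in male WT 1 to 4 and 250, 245, 261 and 229 CPM in male LKO 1 to 4. In females it measured 207, 231, 207 and 221 CPM in the WT and 248, 231, 217 and 233 CPM in the LKO libraries. The groups overlapped, male WT 3 was highest, and female WT 1 and 3 were lowest. Its coefficient of variation over the 16 libraries was 7.6%.

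Cdx2, the regulator of intestinal identity, measured 246, 251, 262 and 180 CPM in male WT and 210, 253, 242 and 256 CPM in male LKO libraries. It measured 240, 257, 247 and 257 CPM in female WT and 278, 245, 244 and 240 CPM in female LKO libraries. Male WT 4 and male LKO 1 were low, female LKO 1 was high, and the other 13 libraries lay between these. Cdx1 made up 54.1 ± 2.97% (SD, n = 16) of the summed RPKM of Cdx1 and Cdx2, from 50.7% in female WT 3 to 61.2% in male WT 4, where Cdx2 was lowest. Across libraries Cdx1 and Cdx2 showed a Spearman correlation of 0.08 (n = 16; points share library depth and tissue makeup). Cdx4, the remaining CDX gene, had 1 count in all libraries together.

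Genes listed as CDX2 targets in the intestine were at high levels in every library. Anpep, an aminopeptidase of the brush border, averaged 2660 ± 351 RPKM, and Lgals4, a lectin of the gut epithelium, averaged 2370 ± 198 RPKM (SD, n = 16). The summed level of the 8 targets lay between 15000 and 20400 CPM. Male WT 4, the library with the lowest Cdx2, had 16200 CPM, below the other 3 male WT libraries at 19800 to 20400 CPM. It lay within the range of female WT (15800 to 19000 CPM) and of the LKO libraries of both sexes.

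Among the 3 GATA genes the balance was toward Gata5. Gata5 (chr2:180325088-180334679, minus strand) made up 63.8 ± 2.93% of their summed RPKM, Gata6 (chr18:11052510-11085635, plus strand) 35.4 ± 2.97%, and Gata4 (chr14:63198914-63245271, minus strand) 0.821 ± 0.265% (SD, n = 16). The Gata4 share never exceeded 1.44%, the value of male WT 2, and was lowest at 0.432% in female LKO 4. The Gata6 share was highest, at 42.0%, in female WT 1, where Gata5 was lowest.

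Gata5 measured 105, 103, 113 and 97.7 CPM in male WT and 114, 105, 115 and 104 CPM in male LKO libraries. In females it measured 75.6, 89.9, 102 and 111 CPM in WT and 95.9, 117, 121 and 112 CPM in LKO libraries. Female WT 1 and 2 lay below all others, and the genotypes overlapped in both sexes. Gata5os, a transcript annotated on the opposite strand and overlapping Gata5, averaged 4.90 ± 0.515 CPM (SD, n = 16), so that the 2 genes cannot be fully told apart unless strand was used in counting.

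Gata6, the GATA factor of the whole intestine, was the steadiest in females. It measured 53.6, 55.4, 52.4 and 52.7 CPM in female WT and 55.2, 52.6, 54.6 and 51.9 CPM in female LKO libraries. In males it measured 57.7, 50.8, 57.8 and 56.0 CPM in WT and 56.8, 57.6, 71.5 and 59.4 CPM in LKO libraries. Male LKO 3 stood above the rest, and the groups of each sex overlapped. The opposite-strand transcript 1010001N08Rik, which overlaps Gata6, averaged 3.04 ± 0.56 CPM.

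Gata4, the factor of the proximal small intestine, was detected in every library, with 14 to 55 counts and 439 in all. It measured 1.52, 2.35, 1.80 and 1.32 CPM in male WT and 1.06, 1.19, 1.41 and 1.82 CPM in male LKO libraries. In females it measured 1.03, 0.889, 1.86 and 1.10 CPM in WT and 0.889, 1.28, 2.02 and 0.742 CPM in LKO libraries. Male WT 2, female LKO 3 and female WT 3 were the highest of the 16, and every pair of groups overlapped. These 3 are also among the 4 libraries with the most RNA of B-cell follicle markers (74.4 to 399 CPM summed over 8 genes, against 17.9 to 30.6 CPM in the other 12), and the fourth, female LKO 2, had 1.28 CPM of Gata4. The part of lymphoid tissue in the Gata4 values was not tested.

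The markers of duodenum and pancreas were at the limit of detection. Pdx1 had 20 counts among 331.7 M (95% exact Poisson interval of the count 12.2 to 30.9) and 0 counts in 8 libraries. By library it had 0, 3, 3 and 0 counts in male WT, 0, 0, 1 and 0 in male LKO, 1, 1, 0 and 1 in female WT and 8, 0, 0 and 2 in female LKO. Female LKO 1, with 8 counts at 60.3 M, was the only library above 3 counts, and its level of 0.129 CPM was below the 0.19 CPM of male WT 2. Plut, a transcript on the opposite strand that overlaps Pdx1, had 212 counts and was found in all 16 libraries (0.265 to 1.43 CPM).

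Onecut2 (chr18:64340364-64398488, plus strand) had 175 counts spread over 13.4 kb of exons, with 15, 4, 16 and 18 counts in male WT and 7, 10, 2 and 5 in male LKO. It had 3, 9, 16 and 11 counts in female WT and 28, 16, 9 and 6 in female LKO. In CPM the lowest value was 0.117 in male LKO 3 and the highest 0.976 in female LKO 2, and the groups overlapped in both sexes. Onecut1 had 2 counts in all libraries, and Onecut3 lay between 0.055 and 0.253 CPM.

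The other members of these families were also low. Gata2 averaged 2.48 ± 0.371 CPM and Gata3 2.31 ± 0.591 CPM, both factors of blood cell lineages, and Gata1, the red cell factor, had 30 counts in all. Of the FOG cofactors that bind GATA proteins, Zfpm1 averaged 3.71 ± 0.455 RPKM and Zfpm2 0.204 ± 0.0642 RPKM (14.8 and 1.01 CPM). Of the 8 relatives, 4 passed the filter on low counts in each comparison and 0 passed the test in any of them.

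The position of each piece was then read from genes other than the 7. Most ileal genes were abundant in all 16 libraries, with Fgf15, an ileal hormone gene, as the exception at 1.72 to 91.8 CPM. Fabp6, the ileal bile acid binding protein, lay between 2660 and 5440 CPM, Slc10a2, the apical bile acid uptake transporter, between 426 and 820 CPM, and Slc51b, which encodes part of the bile acid exporter on the basal side, averaged 576 ± 87.2 RPKM. The summed level of the 10 ileal genes ran from 4870 CPM in male WT 4 to 8800 CPM in female WT 4.

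Genes with higher expression in the proximal small intestine gave a mixed reading. Lct, which encodes the brush border lactase, never exceeded 0.66 CPM, and Fabp1, the liver-type fatty acid binding protein of proximal enterocytes, lay between 1.12 and 13.9 CPM. In contrast, Apoa1, an apolipoprotein, averaged 2550 ± 513 RPKM and the cholesterol transporter Npc1l1 161 ± 22.4 RPKM (SD, n = 16). The sum of the 14 proximal genes ran from 2980 CPM in female WT 1 to 5210 CPM in female LKO 2. Gata4 in these libraries was 1.03 and 1.28 CPM. Among enteroendocrine hormones, Sct (secretin, 72.1 ± 7.93 RPKM) and Ghrl (ghrelin, 4.1 ± 1.48 RPKM) led the proximal list, and Gcg (proglucagon, 66.1 ± 8.09 RPKM) and Nts (neurotensin, 41.3 ± 5.46 RPKM) the distal list.

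Foregut and pancreatic genes were near 0. The 9 stomach genes summed to at most 1.00 CPM in any library, with the acid pump subunit Atp4a (0.0671 RPKM) and Sox2 (0.0517 RPKM), the foregut factor, as the highest. The 7 pancreas genes summed to at most 0.882 CPM, nearly all from the carboxypeptidase gene Cpb1 (0.356 RPKM), with Ins2 at 2 counts in all libraries.

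Colonic genes set 5 libraries apart. Car1, a carbonic anhydrase of cecal and colonic epithelium, measured 1150 CPM in male LKO 2, 917 in female WT 1, 530 in male WT 4, 305 in male WT 3 and 259 in female WT 4. In the other 11 libraries it lay between 0 and 47.2 CPM. Aqp8, a water channel of colonic epithelium, was at 24.1 and 21.5 CPM in male LKO 2 and female WT 1, at 1.26 to 3.5 CPM in the next 3, and at 0 to 0.212 CPM elsewhere. Slc37a2 was at 19.3 and 12.9 CPM in male LKO 2 and female WT 1 and at 3.44 to 6.34 CPM in the other 14. Aqp8 and Slc37a2 are singled out here after their values were seen.

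The 7 genes did not set these 5 libraries apart. The range of each of the 7 in the 5 libraries overlapped its range in the other 11, with Cdx1 at 207 to 272 against 207 to 261 CPM and Gata6 at 52.7 to 57.8 against 50.8 to 71.5 CPM. Male LKO 2, with the most Car1, ranked between place 5 and place 10 of 16 for the 6 genes it had counts of, Gata4 lowest, and had 0 counts of Pdx1. Female WT 1, second for Car1, was lowest of all for Gata5 (75.6 CPM) and shared the lowest Cdx1 value (207 CPM). It also had the lowest summed epithelium markers, 14500 CPM against 14800 to 19000 CPM in the other 15, and the part of this in its Gata5 and Cdx1 values was not tested. Cdx2 was lowest in male WT 4, also among the 5, but at 240 to 262 CPM in the other 4.

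**Figure D2:**
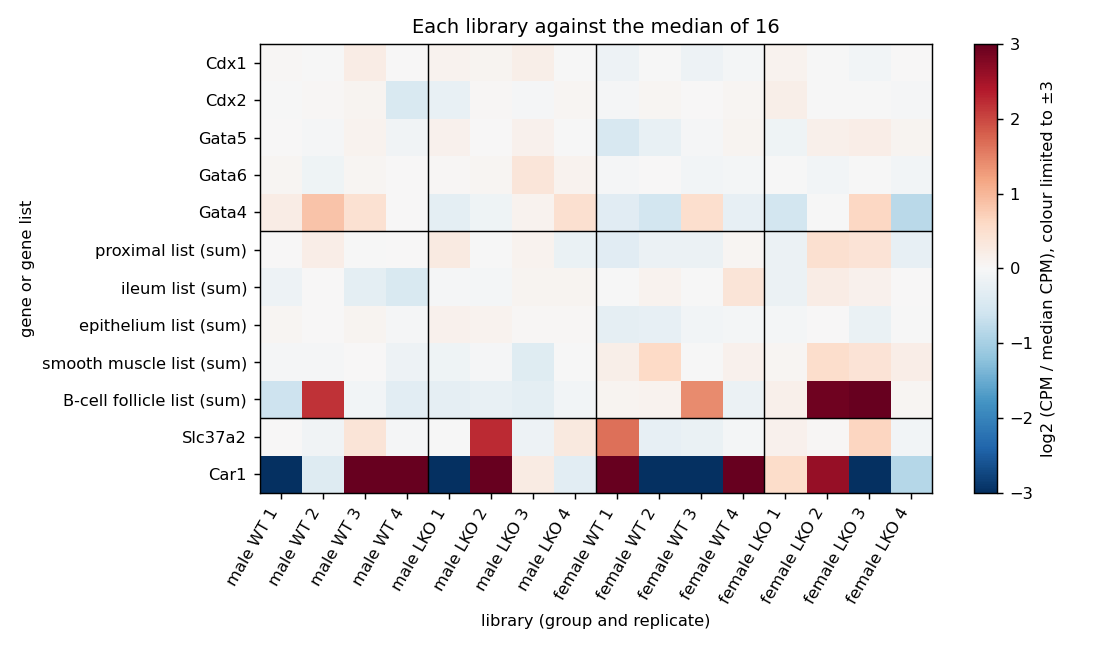
Each library (columns, in 4 groups) against the median of the 16, as log2 ratio of CPM with the colour limited to 3 in either direction, for 5 of the 7 genes (top), summed marker lists (middle) and 2 genes of the colon list (bottom). The CDX and GATA rows are pale in the 5 libraries with 259 to 1150 CPM of Car1, while B-cell follicle markers are high in male WT 2, female WT 3, female LKO 2 and female LKO 3.

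Hox genes gave another coordinate, since their paralogue number follows position along the body axis and they are read mainly from the gut wall. Hoxb9 (31.9 ± 3.05 RPKM) and Hoxb6 (26.5 ± 3.95 RPKM) were highest. Summed by number, group 6 was at 34.5 RPKM, groups 7 and 8 at 16.2 and 17.7, group 9 at 33.8, group 10 at 0.864 and group 11 at 0.0185 RPKM. Hoxc10 had counts in all 16 libraries (0.65 ± 0.307 RPKM), whereas groups 12 and 13 together had 2 counts. Hoxd10 lay at 0.203 to 0.476 CPM in the 5 libraries with the most Car1 and at 0 to 0.265 CPM in the other 11, and 7 of the 11 counts of Hoxa11 were in male LKO 2. Both rest on few counts and were singled out after their values were seen.

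**Figure D3:**
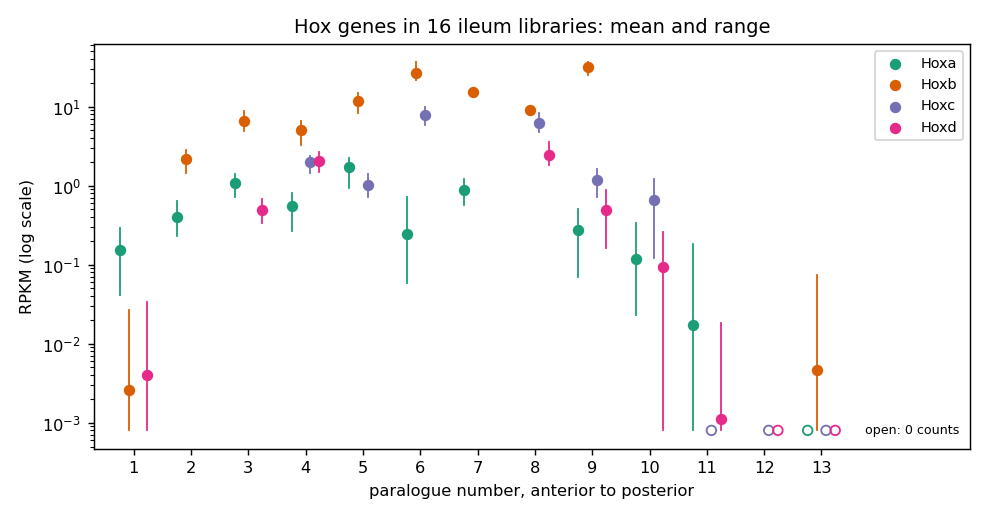
Mean level of each Hox gene in RPKM (log axis) by paralogue number, coloured by cluster, with lines from the lowest to the highest of 16 libraries (lines that reach 0 end at the bottom) and open circles for 0 counts in all. Hoxb6 (26.5 RPKM) and Hoxb9 (31.9 RPKM) are highest, the other clusters are highest at number 5 (Hoxa), 6 (Hoxc) and 8 (Hoxd), and no gene numbered above 9 exceeds a mean of 0.65 RPKM.

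Deletion of Bcl6 in hepatocytes was compared with controls within each sex. In males the quasi-likelihood test of edgeR called 8 of 15169 genes (0.0527%) at an adjusted p below 0.05, and 0 of the 6 regional factors tested. In females it called 6 of 15298 genes (0.0392%) and 0 of the 5 factors tested. Of the factors, 1 in males and 0 in females had an unadjusted p below 0.05, against 5.29% and 11.7% of all genes tested, and DESeq2 called 0 in either sex. Pdx1 was removed by the filter on low counts in both sexes and Onecut2 in females.

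The male value below 0.05 was that of Onecut2. It averaged 0.707 ± 0.31 CPM in male WT and 0.332 ± 0.201 CPM in male LKO libraries (SD, n = 4 each). The log2 difference was -1.11 (SE 0.472), and the adjusted p from edgeR was 0.901. It passed the filter through male WT 1, male WT 3, male WT 4 and male LKO 2 (0.76, 0.901, 0.914 and 0.595 CPM). Male WT 2 with 4 counts lay below 3 of the 4 LKO libraries in CPM. In females, WT (0.538 ± 0.291 CPM) and LKO (0.563 ± 0.287 CPM) differed by 0.0245 CPM (exact two-sided permutation test, p = 0.943, smallest possible p 0.0286). Pdx1 gave exact p-values of 0.429 in males and 0.743 in females by the same permutation test.

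Gata5 had the largest shift of the abundant factors in females. There it averaged 94.6 ± 15.3 CPM in WT and 112 ± 11.0 CPM in LKO libraries (SD, n = 4 each), 0.24 higher on the log2 scale (SE 0.116), and edgeR gave an adjusted p of 0.452. Without female WT 1, the library lowest in Gata5, the log2 fold change was 0.15. The highest Gata5 values, 121 CPM in female LKO 3 and 117 CPM in female LKO 2, were in the libraries with the most B-cell follicle RNA. Male WT 2 and female WT 3, also rich in follicle RNA, had 103 and 102 CPM of Gata5. The part of lymphoid tissue in the Gata5 values was not tested. In males the means were 105 ± 6.17 and 109 ± 5.94 CPM, a log2 fold change of 0.07 (SE 0.0645).

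The remaining factors moved by less than their error in at least 1 sex. Male and female log2 fold changes of Gata6 were 0.14 (SE 0.0817) and 0.01 (SE 0.055), and those of Gata4 were -0.33 (SE 0.266) and -0.04 (SE 0.347). Cdx1 showed 0.03 (SE 0.0718) and 0.11 (SE 0.0614), and Cdx2 0.04 (SE 0.107) and 0.01 (SE 0.0622). The 95% intervals bound what these libraries allow. For Cdx2 the interval ran from -0.20 to 0.27 in males and from -0.12 to 0.15 in females, whereas for Gata4 it ran from -0.90 to 0.23 and from -0.79 to 0.72.

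Over both sexes, with sex as a covariate, edgeR called 42 of 15598 genes (0.269%) and 0 of the 6 factors tested, and DESeq2 also called 0 factors. Gata5 had a log2 fold change of 0.15 (SE 0.0683, unadjusted p = 0.0379, adjusted p = 0.403 by edgeR), the only unadjusted p below 0.05 among the 6, against 11.2% of all genes. Onecut2 was at -0.51 (SE 0.356), Gata4 at -0.19 (SE 0.22), Gata6 at 0.07, Cdx1 at 0.07 and Cdx2 at 0.02. The difference between the male and the female response was tested as an interaction, in which 0 of 15598 genes (0%) and 0 of 6 factors were called by edgeR and none by DESeq2, with 879 genes but 0 factors at an unadjusted p below 0.05. For Onecut2 the interaction was -1.11 (SE 0.696) and for Gata5 -0.18 (SE 0.134) on the log2 scale. The comparison over both sexes and the interaction use the libraries of the male and the female comparison, which share none with each other.

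**Figure D4:**
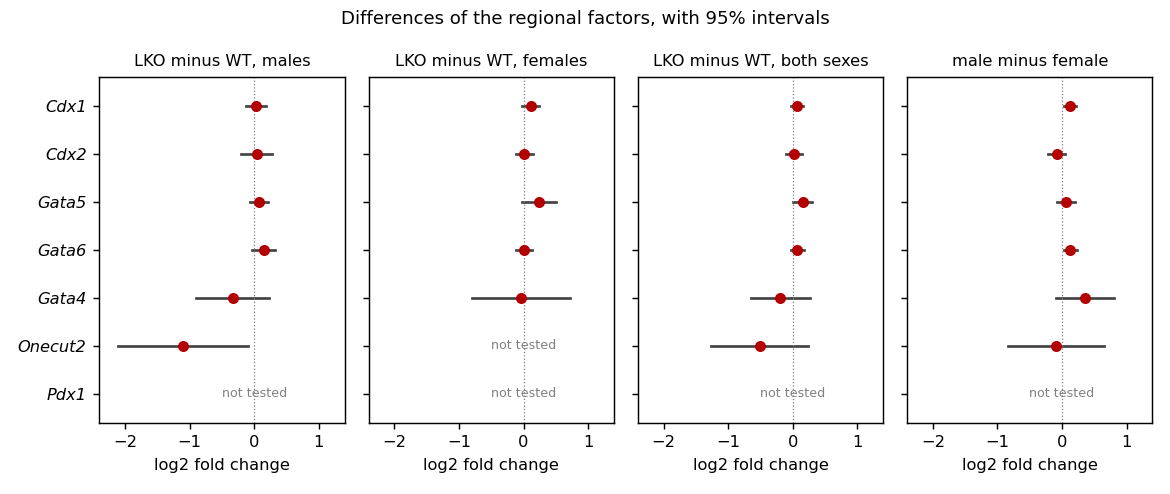
Log2 fold change (point) and 95% interval (line) of each gene for LKO against WT in males, in females and over both sexes, and for males against females, with genes below the count filter marked as not tested. The intervals of Cdx1, Cdx2 and Gata6 are narrow and those of Gata4 and Onecut2 wide, and none of the genes passed the adjusted threshold of edgeR. Between the sexes the intervals of Cdx1 (0.03 to 0.22) and Gata6 (0.03 to 0.23) lie above 0 with TMM scaling, while scaling to epithelium markers put both values at -0.02.

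Genotype did not move the lists of regional genes past the threshold. Of the 14 proximal genes 11 were tested in each sex, of the 10 ileal genes 10, of the 15 colonic genes 3, and of the 39 Hox genes 24, with 0 called in either direction in males or females. In males 5 ileal, 2 proximal, 1 colonic and 2 Hox genes had an unadjusted p below 0.05, and in females 2, 1, 1 and 0, where the shares over all genes tested were 5.29% and 11.7%. DESeq2 called Fabp6 in males and Apoa4 and Cubn in females among these lists. None of the CDX2 targets, intestinal epithelial factors or gut mesenchyme factors was called by edgeR in either sex, and DESeq2 called Creb3l3 in females among them. Paneth cell markers were the exception in males, where 3 of 8 rose, among them Itln1, a lectin (log2 fold change 0.66, SE 0.0687), and Lyz1, lysozyme (0.64, SE 0.0864). All 8 had an unadjusted p below 0.05, and DESeq2 called 6 of them. Their part in the values of the 7 factors was not tested.

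Males and females were compared over both genotypes, the contrast in which the most genes differed. edgeR called 1723 of 15598 genes (11.0%), 875 higher and 848 lower in males, and 0 of the 6 factors tested, while 2 of the 6 and 29.3% of all genes had an unadjusted p below 0.05. The log2 difference of Cdx1, male minus female, was 0.13 (SE 0.046, unadjusted p = 0.0124, adjusted p = 0.0762 by edgeR), with 228 to 272 CPM in males and 207 to 248 CPM in females. DESeq2 called this difference (0.13, adjusted p = 0.0461), the only factor it called. That of Gata6 was 0.13 (SE 0.0491, unadjusted p = 0.017, adjusted p = 0.0919 by edgeR), with 50.8 to 71.5 CPM in males and 51.9 to 55.4 CPM in females. Both ranges overlapped.

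The other factors had wider errors or smaller differences between the sexes. Gata4 was at 0.35 (SE 0.22), Gata5 at 0.06 (SE 0.0683), Onecut2 at -0.09 (SE 0.356) and Cdx2 at -0.08 (SE 0.063) on the log2 scale, positive values being higher in males. Without the 4 libraries richest in B-cell follicle RNA the Gata4 difference was 0.66 (adjusted p = 0.0562 by edgeR), still short of the threshold. The Cdx1 and Gata6 values were 0.09 and 0.15 without the 5 libraries richest in Car1.

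Markers of tissue makeup differed between the sexes, in a contrast in which 11.0% of all genes were called. Smooth muscle markers were lower in males in 7 of 8 genes, such as Acta2 (log2 fold change -0.38, SE 0.0778) and Tagln (-0.36, SE 0.0847), and their summed level lay between 2940 and 3830 CPM in males and between 3730 and 5750 CPM in females. Epithelium markers were higher in males in 4 of 8, such as Krt20 (0.32, SE 0.0571) and Cldn7 (0.12, SE 0.0358), with sums of 17100 to 19000 CPM against 14500 to 17500 CPM. When libraries were scaled to the epithelium markers in place of all genes, the median of all genes in this contrast moved to -0.15 on the log2 scale, 75 genes were called higher and 3985 lower in males. The values of Cdx1 and Gata6 (both -0.02) and Cdx2 (-0.23, adjusted p = 0.0165 by edgeR, called lower in males) moved with that median. The part of makeup in the sex differences of the CDX and GATA genes was not tested.

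Other lists gave the setting of the 7 genes in this contrast, in which 11.0% of all genes were called. Of 16 intestinal epithelial factors 4 were higher in males, led by Elf3 (log2 fold change 0.30, SE 0.0646; mean 298 RPKM) and Hnf4a (0.16, SE 0.0376; mean 319 RPKM), a nuclear receptor of enterocytes, and of 8 CDX2 targets 2 were higher, Cdh17 (0.22, SE 0.0513) and Lgals4 (0.16, SE 0.0486). Of 9 gut mesenchyme factors 3 were lower in males, among them Meis2 (-0.43, SE 0.101) and Nkx2-3 (-0.25, SE 0.0625), and of the 24 Hox genes tested Hoxa7 (-0.50, SE 0.13) and Hoxc8 (-0.29, SE 0.0839) were lower, a count near that share. Adh6a was higher (0.75, SE 0.166) and Fabp1 lower (-1.24, SE 0.327) among the 12 proximal genes tested, also near it by edgeR. Of these 12, however, 7 had an unadjusted p below 0.05 by edgeR, against 29.3% of all genes. DESeq2 called 4 proximal genes, Adh6a, Fabp1, Slc11a2 and Slc40a1. Nts was higher (0.23, SE 0.0667) among the 4 distal hormones. None of the 10 ileal or 4 colonic genes tested was called, with 2 and 0 of them at an unadjusted p below 0.05, whereas DESeq2 called 2 ileal genes, Fabp6 and Fgf15, and 0 colonic genes.

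Levels of the remaining cell type markers complete the account of the pieces. Krt8 and Krt19, keratins of simple epithelium, averaged 2240 and 2110 RPKM, and the highest smooth muscle markers were Actg2 (388 RPKM) and Acta2 (378 RPKM). Cd79a and Cd79b of the B-cell receptor averaged 13.6 and 11.4 RPKM, Uchl1 and Ret of enteric neurons 10.8 and 2.9, Upk3b and Msln of mesothelium 4.66 and 2.15, and the stem cell markers Olfm4 and Smoc2 270 and 30.2 RPKM. Tcf21 (17.8 RPKM) and Foxf1 (12.0 RPKM) led the mesenchyme factors, and Defa24 (15800 RPKM, a defensin whose near-identical copies make its count uncertain) and Lyz1 (6020 RPKM) the Paneth markers. Between the sexes, Uchl1 (-0.38, SE 0.0988) was lower in males, as were 5 of 8 Paneth markers, including Defa24 (-0.53, SE 0.0776) and Defa17 (-0.50, SE 0.0789). None of the B-cell, mesothelium or stem cell markers was called in any comparison by edgeR or DESeq2. At an unadjusted p below 0.05 stood 6 of 8 B-cell markers in the interaction and 1 mesothelium marker in males. So did 2, 2 and 3 of 6 stem cell markers in males, in females and in the interaction. The shares over all genes tested were 5.29% in males, 11.7% in females and 5.64% in the interaction. Of the 6 stem cell markers, 5 had a positive log2 fold change in males and 0 in females. Summed B-cell markers were highest in female LKO 3 (399 CPM) and female LKO 2 (210 CPM).

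Genes whose pattern over the 16 libraries was most like that of each factor were named by Spearman correlation of log2 CPM among 14419 genes, as a description. For Cdx1 they were Psma6 (0.95), Ndufs8 and Sec13 (0.89 each), and for Cdx2 Nudt16l1, Zfp532 and Tcf21 (0.84 each). For Gata4 they were Sirt7 (0.86), Mgrn1 and Tcf25 (0.81 each), for Gata5 Ddx54 (0.88), Apoc2 (0.86) and Max (0.84), and for Gata6 Exoc1 (0.89), Med19 (0.87) and Sart3 (0.84). For Onecut2 they were Zfp3 (0.84), Krt80 and Efr3b (0.76 each). Of these 18 genes, 4 stayed among the closest 3 by Pearson correlation and 2 after group means were removed. Among the 15 pairs of factors the highest correlation was 0.61, between Gata6 and Cdx1, and it was 0.45 after group means were removed. All points share library depth and tissue makeup.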

How the data were processed

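Terminal ileum of 16 mice was sequenced (stranded mRNA libraries, single-end reads), and the sample titles gave the groups and replicate numbers. The authors aligned reads to mm10 with STAR 2.5.2, keeping uniquely mapped reads, and counted exon reads per gene with HOMER (version 4.10 in the submitters' processing notes). The deposited file holds these raw counts with no normalization. The strand option and annotation version are not given in the sources used here. In females the antisense gene Tsix averaged 0.445 CPM against 457 CPM for Xist, which it overlaps. Counts near 0 can include stray reads.

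Counts were scaled by TMM and tested with edgeR 4.0.16 (R 4.3.3; robust quasi-likelihood F-test; filterByExpr by group). Genotypes were compared within each sex on the 8 libraries concerned, and the other comparisons used all 16. P-values were adjusted by Benjamini-Hochberg over all genes tested, with a threshold of 0.05, and the SE is the size of the log2 fold change over the square root of F. The scripts were tested on simulated counts. RPKM is TMM-scaled CPM per kb of the deposited length. Factors below the filter were tested by exact permutation (70 relabellings). Alternatives included DESeq2 1.42.0, other scalings and filters, a replicate block, a covariate for the number in the sample title and each library left out. What that title number counts was not given. Sets of libraries with the most Car1 or B-cell follicle RNA were left out as alternatives chosen after seeing the data.

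The 7 genes and the 19 gene lists were chosen with earlier results of these data known. Named are the 7 factors, their relatives by level, the 2 highest genes of each list with up to 2 called genes in either direction by smallest p, and the 3 genes most like each factor (mean of at least 1 CPM). Some genes that this rule names are not reported here. Coordinates are those of the deposited table. Promoter windows were available for 3 of the 7 factors, and their coordinates are on the same assembly (GRCm38).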

Additional observations from a re-analysis of the deposited data

Results flagged for a closer look

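In each group of 4 libraries the highest and lowest were compared with the rest by Dixon's ratio, the gap to the nearest library over the whole range and set against its 95% critical value for 4 libraries. Chance flags about 1 in 20 groups, and 28 groups of the 7 factors and 76 of summed lists were examined. Among the factors, Cdx2 in female LKO 1 stood at 278 CPM against 240 to 245 CPM in the other 3 libraries (ratio 0.874). Pdx1 in male LKO 3 stood at 0.0587 CPM against 0 (ratio 1.0) and in female WT 3 at 0 against 0.055 to 0.0575 CPM (ratio 0.956), each a difference of 1 count.

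Among the lists, the colon genes summed to 1230 CPM in male LKO 2 against 40.1 to 45.6 CPM (ratio 0.995), and the CDX2 targets to 16200 CPM in male WT 4 against 19800 to 20400 CPM (ratio 0.86). The proximal genes of male WT 2 summed to 4290 CPM against 3720 to 3800 CPM (ratio 0.863), and the proximal hormone genes of male LKO 3 to 48.7 CPM against 40.7 to 41.5 CPM (ratio 0.906). B-cell follicle markers summed to 124 CPM in male WT 2 against 17.9 to 26.4 CPM (ratio 0.92) and to 74.4 CPM in female WT 3 against 24.4 to 29.8 CPM (ratio 0.893), and crypt stem cell markers to 1360 CPM in male WT 1 against 1020 to 1050 CPM (ratio 0.91).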

How the results depend on the processing

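Of 742 alternative values of the log2 fold changes of the factors, 740 kept the call and 41 turned the sign without a call. The exceptions were Cdx1 between the sexes under DESeq2 (0.13) and Cdx2 between the sexes with scaling to epithelial genes (-0.23), each raising the factors called from 0 to 1. Genes called in males were 63 with DESeq2, 25 with no filter and 16 with the replicate block. They were 3 with the title number and 36 without the 5 libraries richest in Car1. In females they were 154 with DESeq2, 23 with epithelial scaling (2 higher and 21 lower in LKO, against 3 and 3 with TMM), 15 with no filter, 10 with the newer quasi-likelihood method, 15 with the block, 2 without the 4 libraries richest in B-cell follicle RNA and 3 with the deepest library thinned. Over both sexes they were 223 with DESeq2 and 248 with epithelial scaling (13 higher and 235 lower in LKO, against 19 and 23 with TMM). They were 16 with the block, 2 with the title number, 5 without the follicle-rich libraries and 25 with thinning. Between the sexes they were 4060 with epithelial scaling (75 higher and 3985 lower in males) and 326 with the title number. They were 666 without the Car1-rich and 897 without the follicle-rich libraries. The causes were not tested.

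With each library left out in turn, genes called ranged from 5 to 29 in males (without male WT 1 and male WT 4), 0 to 4 in females, 5 to 102 over both sexes (5 without male WT 1 and 102 without male WT 4), 0 to 1 in the interaction and 934 to 1956 between the sexes (934 without male LKO 3), while the factors called stayed at 0. The male count was 13 without male LKO 2. The female count fell to 0 without female LKO 1, 3 or 4, and was 1 or 2 without each of the others except female WT 2. Over both sexes it was 35 to 46 without male WT 3, male LKO 1, male LKO 3 or female WT 4, and 8 to 26 without any other library not named above. Between the sexes it was 1019 to 1027 without male LKO 1, female WT 2 or female LKO 3. Replicate numbers did not pair the libraries (correlations of same-numbered deviations from -0.1 to 0.26), and the block left the factors called at 0. Without length, 4 positions in the order of levels changed, and by medians 2 changed. With sums, the highest library was at 1.75 times the lowest for the proximal list and at 37.1 times for the colonic list. When medians replaced sums, the log2 range of library levels was 0.52 for the proximal and 1.12 for the colonic list. Of the 18 genes most like a factor, 4 stayed under Pearson correlation and 2 with group means removed. Depth limits Pdx1, Onecut2 and Gata4.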
